A study of Mus musculus with 9 samples.

Results

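The integrin subunits and laminin chains of the mouse kidney were described here as 36 genes out of 55385 in the expression table. They were chosen by their symbols, 26 genes of the Itga and Itgb series that code for integrin subunits and 10 genes of the Lama, Lamb and Lamc series that code for laminin chains. Integrins are cell-surface receptors that pair an alpha with a beta subunit, hold cells to the extracellular matrix or to other cells, and pass signals through adaptor proteins at their cytoplasmic tails. Laminins are cross-shaped proteins built of an alpha, a beta and a gamma chain, and they form the sheet on which basement membranes assemble. In the kidney these proteins anchor podocytes and tubule cells to their basement membranes, while other integrins release TGF-beta from its latent form or let leukocytes leave the blood.

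Kidney RNA was compared among male C57BL/6 mice (C57BL/6J in the study's methods), with 3 mice in each of 3 groups. The methods give an age of 8 to 10 weeks for the mice in which the model was set up. Kidneys were taken at the end of the study, after the 4 weeks given below. Control mice (replicates 2, 4 and 5) were untreated. HN mice (replicates 4, 8 and 12) had hyperuricemic nephropathy, a kidney injury driven by high uric acid, after adenine at 0.16 g/kg and potassium oxonate at 2.4 g/kg on alternate days through 4 weeks. PEC mice (replicates 1, 2 and 3) received both agents in the same way and, over the same 4 weeks, the plant flavonoid pectolinarigenin at 25 mg/kg daily by mouth. Libraries were made from poly(A) RNA and held 57714111 to 81069646 gene counts, with a median of 74397038. The labelled tissue was checked by markers of tubule cells: those of the proximal tubule, led by Slc34a1, summed to 1293, 1301 and 1479 for Control, 296, 282 and 282 for HN and 636, 762 and 449 for PEC (FPKM scaled as described next). All 5 of these markers fell in HN and rose in PEC against HN.

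Levels are deposited FPKM (counts per kilobase of gene, scaled to the total of the library) divided by the TMM factor of the library, so that they move with the fold changes, and mice are listed in the order above. The deposited FPKM has 2 decimals, so a level under 0.1 rests on 1 digit. A gene was called higher or lower where edgeR gave a fold change of at least 1.5 and a p, adjusted by Benjamini and Hochberg over the 18571 genes tested, no higher than 0.05, and fold changes are on the log2 scale with their standard errors. Calls are those of this fit unless another setting is named. Of the 36 genes 35 were tested. The exception was Itgad, a partner of the beta 2 subunit found on macrophages, with 10 counts in Control 5, 5 in HN 12, 4 in PEC 2 and 0 in the other libraries. The HN and PEC libraries lay apart on the second principal component, which held 27.6% of the variance, and the labels name no batch, so treatment and any difference in library preparation cannot be told apart. PEC 3 differed from PEC 1 and PEC 2 in summed markers of urothelium (33.9, against at most 9.19 in any other library), of neutrophils and of endothelium and in the dendritic cell gene Cd209a, and Itgav set PEC 1 apart from PEC 2 and PEC 3. Control 5 was below Control 2 and Control 4 in summed markers of injured tubule (53.6, against 110.4 and 100.1) and of collecting duct (236, against 432 and 471). The scaling also matters, since TMM factors were 0.777 to 0.835 in Control, 1.16 to 1.23 in HN and 1.01 to 1.04 in PEC.

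The first comparison asked which of these genes differed in kidneys with nephropathy. Most were higher in HN than in Control: 22 of the 35 were called higher, against 19.4% of all genes tested, and 4 were called lower, against 17.0%. The median log2 fold change was 0.92 over the 35 genes and -0.02 over all genes. Integrins made up 17 of the higher genes and laminins 5, and the widest difference was that of Itgam, the complement-binding alpha subunit of myeloid cells, at 43.3-fold. The 4 genes called lower were Itgb8, Itga2b, Lama1 and Lama3. Scaled by total counts alone, the median of all genes moved to 0.55 and the split of members to 28 higher, with Itga1, Itga7, Itga8, Itgb6, Lamb2 and Lamb3 added, and 0 lower, while over all genes 85.6% of calls were higher in place of 53.2%.

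The next comparison asked what pectolinarigenin changed in kidneys under the same induction. Of the 35 tested members 10 were called lower in PEC than in HN, against 16.5% of all genes, 1, Itga2b, was called higher, against 15.4%, and 24 were not called. Their median log2 fold change was -0.53, with -0.01 over all genes. Of the 25 tested members of at least 6000 bases 8 were lower, against 27.6% of all genes of that length. The 10 genes called lower were Itgb8, Itgam, Itga6, Itga4, Itga8, Itga9, Lama2, Itgb1, Lamc1 and Itgb3. With total counts alone the median of all genes was -0.24, 17 members were lower, with Itga1, Itga5, Itgb5, Itgal, Itgb2, Lama4 and Lamb1 added, and 1 higher, and 28.7% of all calls were higher in place of 48.3%.

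The last comparison set treated against untreated healthy kidneys. In PEC 14 members were called higher than in Control, against 20.9% of all genes, and 5 lower, against 19.1%. The median was 0.47 over the members and 0.02 over all genes. All 6 tested leukocyte subunits were among the 14, and Itgb8, Lama3, Itga6, Itga8 and Lamc3 were the 5 called lower. Total counts alone gave 20 members higher, with Itga3, Itgb3, Itgb5, Lama4, Lamb1 and Lamc1 added, and only Itgb8 and Lama3 lower, with an all-gene median of 0.36, and 75.9% of all calls were higher in place of 52.2%. limma on the deposited FPKM of 15508 genes with a mean of at least 0.5, which carries that same scaling, gave 81.9%, 28.6% and 70.7% of all calls higher in the 3 comparisons with a pseudocount of 1. Itga10 and Itga11 lay below that mean, so the limma fits do not cover them. All-gene medians with the pseudocount of 1 were 0.35, -0.19 and 0.19, and members stood at 25 higher and 0 lower, 0 and 14, and 13 and 1. With a pseudocount of 0.1 the shares were 83.2%, 28.4% and 70.9%, the medians 0.47, -0.25 and 0.26, and the members 27 and 0, 1 and 19, and 19 and 3. The comparisons share mice, each group standing in 2 of them, so their values are given side by side and not counted against each other.

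**Figure D1:**
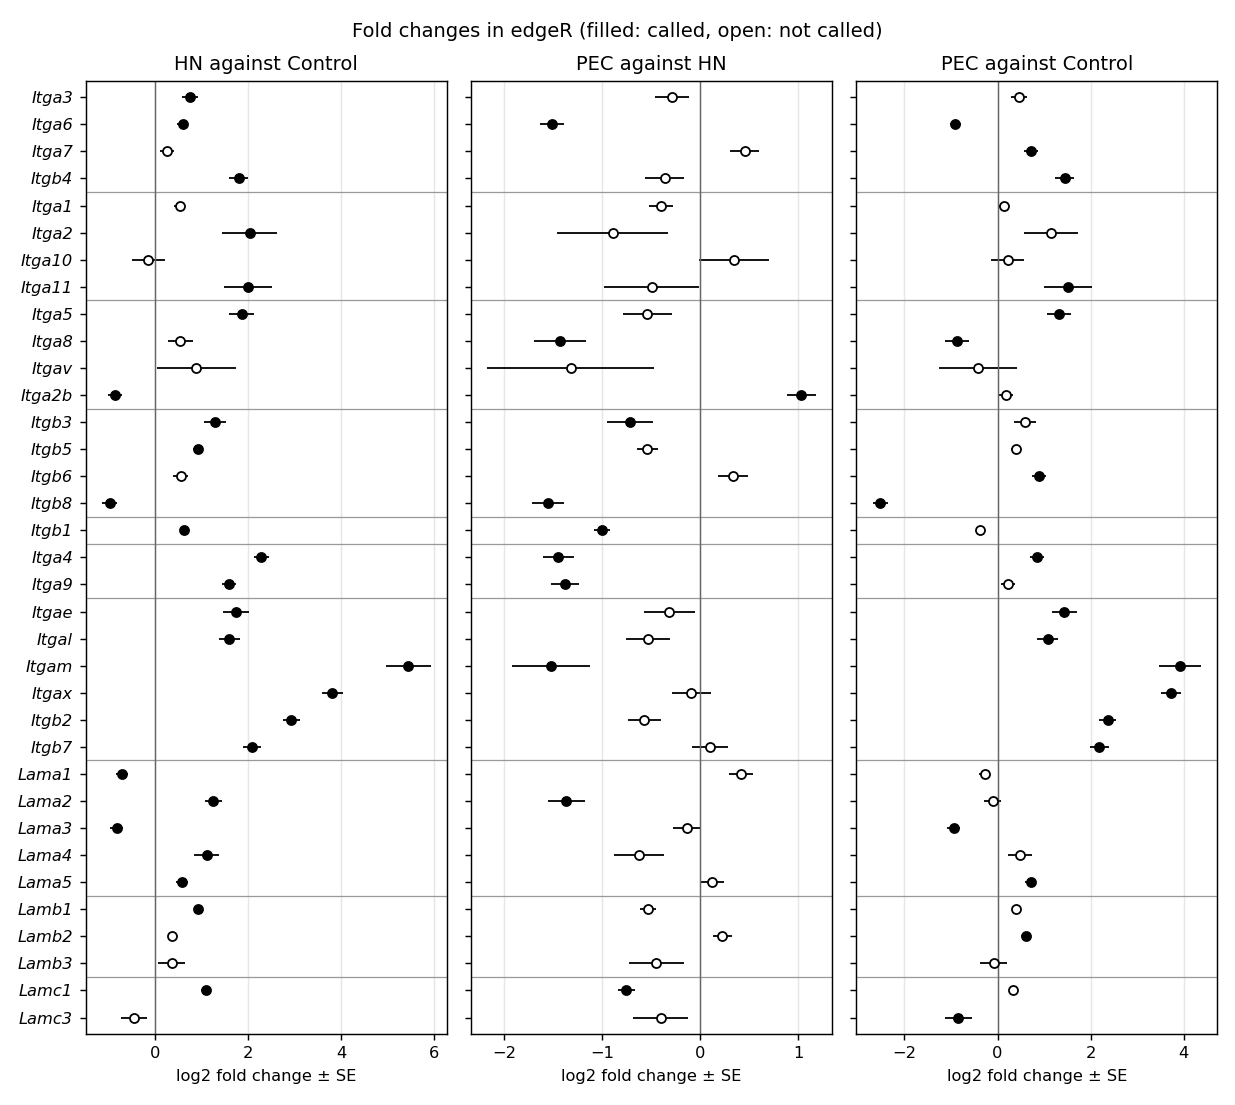
Log2 fold change of each of the 35 tested genes (points) with its standard error (bars) in edgeR, with panels from left to right for HN over Control, PEC over HN and PEC over Control, genes grouped by role, filled points for genes called and open points for genes not called, and a different horizontal range in each panel. In HN against Control 22 filled points lie right of 0 and 4 left of it, and in PEC against HN 1 lies right and 10 left; with libraries scaled by total counts alone, none is called lower in HN.

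By their calls in HN against Control and in PEC against HN, 8 members were higher in HN and then lower in PEC: Itga6, Itgb3, Itgb1, Itga4, Itga9, Itgam, Lama2 and Lamc1. Another 14 were higher in HN and passed in neither direction in PEC against HN, which does not show that they stayed at the HN level. Itga2b alone was lower in HN and higher in PEC, Itgb8 alone was lower in both steps, and Itga8 was called only in PEC against HN. Lama1 and Lama3 were lower in HN and not called after it, and 8 tested members were called in neither comparison. Because HN enters both comparisons, this count is a description of the calls. Over all 18571 genes 6.78% were higher and then lower, 12.2% higher and then not called, 7.11% lower and then higher, 0.851% lower in both, 9.09% lower and then not called, 8.82% lower in PEC against HN only, and 46.8% called in neither.

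**Figure D2:**
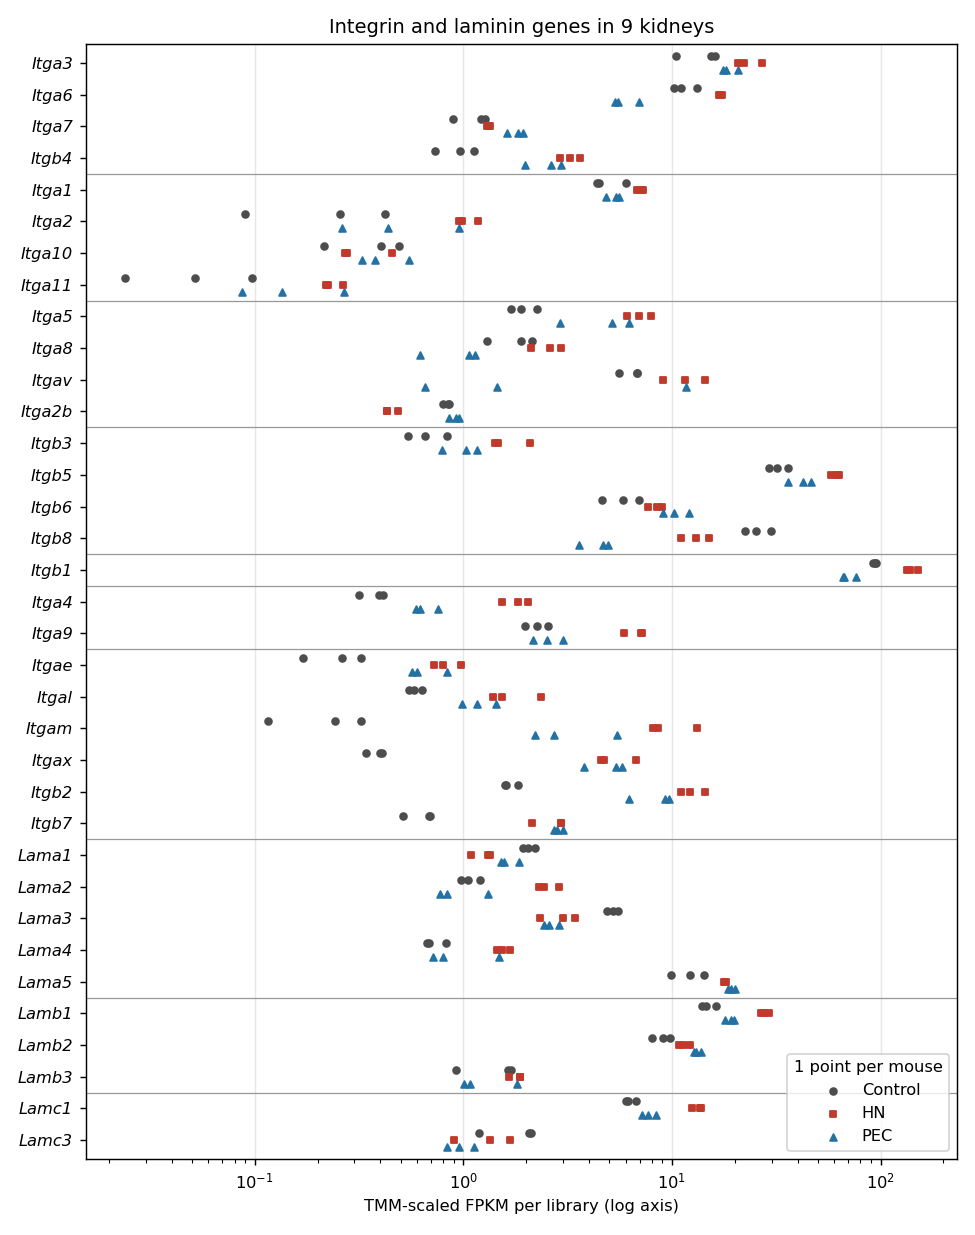
TMM-scaled FPKM (log axis) of the 35 tested genes in each of the 9 kidneys, 1 point per mouse, circles for Control, squares for HN and triangles for PEC. Itgb1 is the most abundant member in every group, at 65.9 to 151 across the 9 mice, while Itga11 lies between 0.0239 and 0.267.

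Itgb1, the beta subunit shared by most matrix-binding integrins, was the most abundant member in all 9 kidneys. Its level was 94.7, 94.4 and 91.6 for Control, 150.8, 139 and 135 for HN and 65.9, 76.6 and 66.9 for PEC. All HN mice lay above all Control mice and all PEC mice below them, with no overlap among the 3 groups. It rose 1.54-fold in HN (0.62 ± 0.080, adjusted p = 0.000258) and was 2.002-fold lower in PEC than in HN (-1.001 ± 0.081, adjusted p = 5.00e-05). Against Control the PEC value was -0.38 ± 0.080, with an adjusted p of 0.00367 but a fold change short of the limit. The call in HN was lost without HN 4, at 0.58. Among all beta subunits Itgb1 held 57.9% ± 1.33 of the summed FPKM (SD, n = 3) among Control mice, 57.9% ± 1.30 in HN and 49.5% ± 1.08 in PEC, and as a share of counts, which weigh long transcripts more, 45.4%, 53.6% and 46.5%.

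The laminin receptors of the set are Itga3, which with beta 1 holds podocytes and tubule cells to laminin, Itga6, which pairs with beta 1 or beta 4, Itga7, known best from muscle, and Itgb4, the partner of alpha 6 in the hemidesmosomes of epithelia. In HN 3 of these 4 were called higher and none lower. Itga3 was the most abundant, with 15.4, 16.1 and 10.502 for Control, 27.2, 22.1 and 20.7 for HN and 18.2, 17.6 and 20.8 for PEC. Every HN mouse exceeded every Control mouse, and the PEC mice reached from above Control into the range of HN. The rise in HN was 1.69-fold (0.76 ± 0.17, adjusted p = 0.00616), and PEC against HN gave -0.29 ± 0.17, which was not called. Without Control 5, the lowest library, the HN value was 0.58 and no longer called. PEC against Control was 0.47 ± 0.17, not called. It was called higher with total counts alone at 0.80, both limma fits at 0.74 and 0.78, and the length offset at 0.65.

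Itga6 took another course, with levels of 13.1, 10.3 and 11.03 for Control, 16.9, 17.1 and 17.3 for HN and 5.53, 6.96 and 5.32 for PEC. Its PEC mice were the lowest of the 9 and the groups did not overlap. It was 1.51-fold higher in HN (0.60 ± 0.12, adjusted p = 0.00293), then 2.84-fold lower in PEC than in HN (-1.51 ± 0.12, adjusted p = 4.89e-05) and 1.88-fold lower than in Control (-0.91 ± 0.12, adjusted p = 0.000282). The call in HN was lost without Control 4 or Control 5, at 0.52 and 0.56, and the call against Control was lost with total counts alone at -0.57, limma at a pseudocount of 1 at -0.54 and the length offset at -0.50. For Itgb4 the values were 0.963, 1.13 and 0.734 for Control, 3.26, 2.91 and 3.64 for HN and 2.62, 1.98 and 2.93 for PEC, with Control mice far below the other groups and PEC mice partly inside the HN range. It rose 3.50-fold in HN (1.81 ± 0.20, adjusted p = 0.000115) and stood 2.73-fold above Control in PEC (adjusted p = 0.000405). Itga7 averaged 1.12 ± 0.204 in Control, 1.33 ± 0.0194 in HN and 1.79 ± 0.153 in PEC (SD, n = 3 each) and was called in PEC against Control only, at 0.71, a call lost without Control 5 at 0.56 and with limma at a pseudocount of 1 at 0.57.

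Cells of the injured tubule can express several of these receptors, and their markers moved in the same mice. The 5 markers totalled 110.4, 100.1 and 53.6 for Control, 622, 591 and 569 for HN and 458, 505 and 495 for PEC. By group mean Krt8 was the most abundant in Control (83.5, with Havcr1 at 1.38) and Havcr1 in HN and PEC. In PEC 3 both Lcn2 and Krt8 exceeded Havcr1. All 5 rose in HN, against 19.4% of all genes, and 1 of 5 fell in PEC against HN, against 16.5%. Podocyte markers, with Podxl the most abundant of 5, totalled 69.6 ± 1.58 in Control, 65.3 ± 6.38 in HN and 73.8 ± 5.40 in PEC (SD, n = 3), with 1 of 5 called higher in HN, near the 19.4% of all genes. In bulk kidney, fewer cells of a type and less RNA per cell cannot be told apart, and the part of cell composition in the values of Itga3, Itga6 and Itgb4 was not tested.

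Collagen receptors formed a group of low levels apart from Itga1, a receptor for collagen IV. Itga1 stood at 4.47, 4.36 and 6.01 for Control, 7.09, 6.81 and 7.24 for HN and 5.39, 5.58 and 4.85 for PEC. HN mice were the highest and did not overlap either group, but the difference of 0.53 ± 0.12 (adjusted p = 0.00608) was short of the fold limit, and it passed without Control 5 at 0.69, with total counts alone, with both limma fits and with both offsets. PEC against HN gave -0.40 ± 0.12, not called, and turned to 0.15 with the length offset and 0.30 with the length and GC offset. With those offsets Itga1 was called higher in PEC than in Control, at 0.77 and 0.89. Itga2, a collagen receptor of epithelia and platelets, had 0.256, 0.419 and 0.0901 for Control, 1.17, 0.956 and 0.981 for HN and 0.261, 0.435 and 0.948 for PEC. All HN mice exceeded all Control mice, whereas PEC mice spread from the Control range to just under HN. It rose 4.10-fold in HN (2.04 ± 0.59, adjusted p = 0.0186), a call lost without Control 2 although the value there was 2.02, and PEC against HN gave -0.89 ± 0.56, which was not called. Without PEC 3 that value was -1.53 and still not called, and PEC against Control went from 1.15 to 0.50.

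Itga11, a fibrillar collagen receptor of fibroblasts, was the scarcest tested member, with 10 to 147 counts in a library. Its scaled FPKM was 0.0975, 0.0239 and 0.0515 for Control, 0.224, 0.264 and 0.219 for HN and 0.0870, 0.267 and 0.135 for PEC. Control lay below HN without overlap and PEC covered the range from Control to HN. The rise in HN was 4.003-fold (2.001 ± 0.51, adjusted p = 0.0108). In PEC against Control it was called higher (1.51 ± 0.51, adjusted p = 0.0337) although those groups overlap, and that call was lost without Control 4, Control 5, HN 8, HN 12 or PEC 2, with no filter, with only those groups fitted and with the length and GC offset. Without PEC 2 the value was 1.01, without Control 4 it was 1.17 and with the length and GC offset 1.33. In the other settings that lost the call it stayed at 1.49 to 1.54. Itga10, a collagen receptor of cartilage, averaged 0.369 ± 0.140 in Control, 0.335 ± 0.106 in HN and 0.418 ± 0.118 in PEC and was called in no comparison.

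Some alpha subunits recognise the RGD sequence of fibronectin, vitronectin and related ligands. Itga5, the main fibronectin receptor, had 2.27, 1.88 and 1.70 for Control, 7.93, 6.96 and 6.08 for HN and 2.90, 5.16 and 6.201 for PEC. HN and PEC mice all lay above Control, and PEC 1 was the lowest of the treated mice. It rose 3.64-fold in HN (1.86 ± 0.26, adjusted p = 0.000386) and was 2.50-fold above Control in PEC (adjusted p = 0.00237), and PEC against HN gave -0.54 ± 0.25 (adjusted p = 0.111). That last value was called lower without PEC 3 at -0.77, and with total counts alone and both limma fits.

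Itga8, the nephronectin receptor of mesangial and other mesenchymal cells, was at 1.29, 1.89 and 2.14 for Control, 2.60, 2.11 and 2.94 for HN and 1.14, 1.06 and 0.619 for PEC. Control and HN overlapped, while every PEC mouse lay below every mouse of the other groups. In HN against Control Itga8 gave 0.55 ± 0.26 and was not called. It was called higher there with total counts alone at 1.13, with limma at pseudocounts of 1 and 0.1 at 0.74 and 1.06, and with only those groups fitted at 0.59. Itga8 was 2.69-fold lower in PEC than in HN (-1.43 ± 0.26, adjusted p = 0.00260) and 1.83-fold lower than in Control (-0.87 ± 0.26, adjusted p = 0.0208). The call against Control was lost without Control 4, Control 5 or PEC 3, with total counts alone at -0.53, with both limma fits and with both offsets. Its ligand Npnt stood at 18.5, 28.0 and 37.1 for Control, 36.5, 20.04 and 25.9 for HN and 28.0, 37.4 and 26.5 for PEC and was called in no comparison.

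Itgav, the alpha subunit that pairs with beta 3, 5, 6 and 8 among others, had the most uneven treated group of the set. Its values were 6.81, 6.76 and 5.55 for Control, 14.4, 11.5 and 9.08 for HN and 11.6, 1.45 and 0.658 for PEC. HN mice lay above Control without overlap, PEC 1 sat within the HN range, and PEC 2 and PEC 3 were far below all other mice. In counts these were 10915 in PEC 1, 1148 in PEC 2 and 483 in PEC 3. No comparison was called in edgeR with all 9 mice (HN against Control 0.89 ± 0.84, adjusted p = 0.420; PEC against HN -1.32 ± 0.85, adjusted p = 0.237). Without PEC 1 the gene was called higher in HN at 0.89 and lower in PEC, at -3.45 against HN and -2.56 against Control. With all mice it was called higher in HN at 0.93 when only the 2 groups were fitted, and lower in PEC against HN by limma, at -1.97 and -2.50 with pseudocounts of 1 and 0.1. Of 11514 genes with a mean count of at least 500, 12 had PEC 1 at 5 times or more of both other treated libraries, and Itgav was at 7.98 times the higher of them, a limit set after its values were seen.

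Itga2b, the alpha subunit of the platelet fibrinogen receptor, ran the other way. Levels were 0.841, 0.850 and 0.798 for Control, 0.431, 0.486 and 0.429 for HN and 0.918, 0.851 and 0.958 for PEC, with HN mice close together below all others. It was 1.80-fold lower in HN (-0.85 ± 0.15, adjusted p = 0.00132) and 2.05-fold higher in PEC than in HN (1.04 ± 0.15, adjusted p = 0.000648). With total counts alone the HN value was -0.28 and not called, and limma at a pseudocount of 1 gave 0.33 in PEC against HN, not called. Its beta partner Itgb3 moved in the opposite direction, as described next, and the 5 platelet markers, led by Pf4, summed to 1.10, 1.24 and 1.40 for Control, 9.34, 6.73 and 9.96 for HN and 4.51, 3.67 and 2.45 for PEC. Of those, 3 were tested. Pf4 and Ppbp rose in HN and Pf4 fell in PEC against HN, whereas Gp1ba gave -0.71 ± 0.34 in HN, not called, and rose in PEC against HN (1.26 ± 0.34, adjusted p = 0.0160). The part of platelets in these values was not tested.

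Among Itgb3, Itgb5, Itgb6 and Itgb8, the beta subunits grouped here with alpha v, the most abundant was Itgb5, a vitronectin receptor subunit. Its levels were 36.03, 32.0 and 29.3 for Control, 61.8, 63.5 and 58.1 for HN and 42.7, 46.2 and 36.1 for PEC. HN mice stood clear of both other groups. It rose 1.91-fold in HN (0.94 ± 0.11, adjusted p = 0.000134) and in PEC against HN the value was -0.54 ± 0.11, with an adjusted p of 0.00399 but a fold of 1.45 in the lower direction, under the limit. That value was called without PEC 2 at -0.60, with total counts alone, both limma fits, no filter and the length and GC offset. Itgb3, which serves platelets and vessel cells, had 0.658, 0.838 and 0.541 for Control, 2.09, 1.42 and 1.46 for HN and 0.792, 1.03 and 1.16 for PEC. Every HN mouse exceeded the Control and PEC mice. It rose 2.47-fold (1.30 ± 0.24, adjusted p = 0.00186) and was 1.64-fold lower in PEC (-0.72 ± 0.23, adjusted p = 0.0348). The call in PEC against HN was lost without HN 4, PEC 1 or PEC 2, at -0.52, -0.58 and -0.73, with limma at a pseudocount of 1 at -0.56 and with the length offset at -0.52. In PEC against Control it was 0.58 and not called, and it was called higher without Control 4 or PEC 1, at 0.76 and 0.72, and with 5 other settings, DESeq2 among them at 0.59.

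Itgb8 and Itgb6 code for the beta subunits whose alpha v pairs free TGF-beta from its latent complex. Itgb8 was at 25.2, 30.0 and 22.5 for Control, 15.0, 13.0 and 11.05 for HN and 4.93, 4.67 and 3.57 for PEC. Control was highest, HN lay between and PEC was lowest, without overlap. It was 1.96-fold lower in HN (-0.97 ± 0.16, adjusted p = 0.00110), 2.93-fold lower again in PEC than in HN (-1.55 ± 0.16, adjusted p = 0.000158) and 5.73-fold lower in PEC than in Control (-2.52 ± 0.17, adjusted p = 1.15e-05), the widest downward difference among the members. Total counts alone left the HN value at -0.41, not called, and both calls in PEC were kept in every setting. With the length and GC offset their values shrank to -0.83 against HN and -1.72 against Control.

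Itgb6, confined mostly to epithelia, moved up instead, with 5.80, 4.63 and 6.95 for Control, 7.68, 8.504 and 8.92 for HN and 10.2, 12.1 and 9.02 for PEC. Control was lowest and PEC highest, and no group overlapped another. It rose 1.85-fold in PEC against Control (0.89 ± 0.16, adjusted p = 0.00139), and the step in HN, 0.56 ± 0.15 (adjusted p = 0.0160), was under the fold limit. It was also called without Control 5 or HN 4 at 0.70 and 0.62, with total counts alone and both limma fits at 1.13, 0.97 and 1.10, with either other filter, with only the 2 groups fitted and with both offsets. Per unit of length the ratio of Itgb6 to Itgb8 was 0.231, 0.155 and 0.309 for Control, 0.512, 0.654 and 0.808 for HN and 2.07, 2.59 and 2.53 for PEC. Itgb8 was the more abundant of the pair in every Control and HN kidney and Itgb6 in every PEC kidney. The ratio was formed after these values were seen and was not tested. It does not depend on the scaling between libraries.

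**Figure D3:**
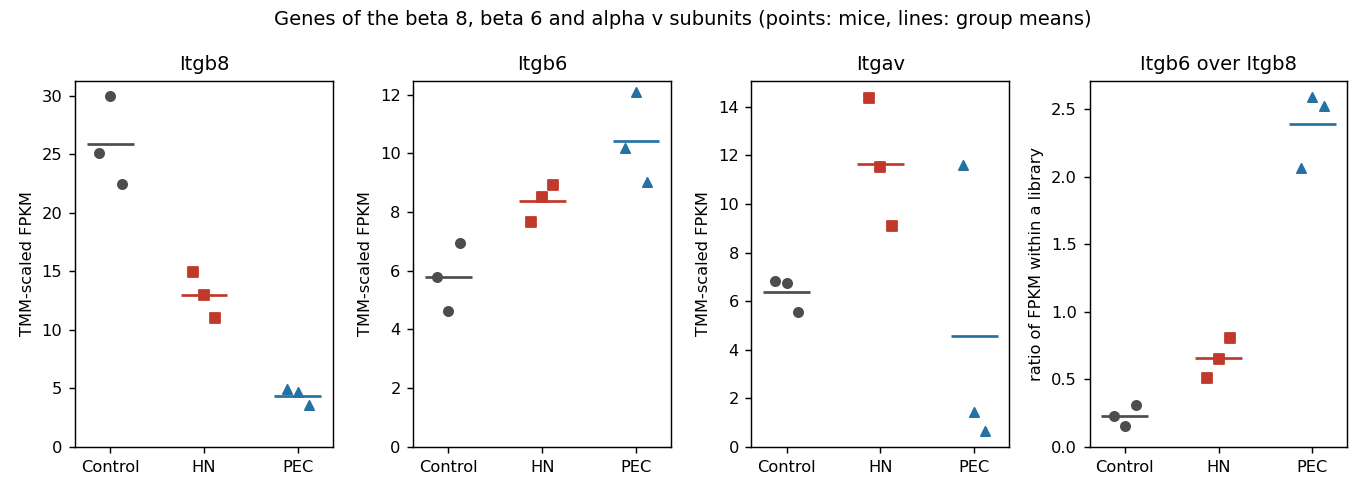
TMM-scaled FPKM of Itgb8, Itgb6 and Itgav, and the ratio of Itgb6 to Itgb8 FPKM within a library, for each mouse (points) with the group mean (lines) in Control, HN and PEC. Mean Itgb8 is 25.9 ± 3.77 in Control, 13.0 ± 1.97 in HN and 4.39 ± 0.721 in PEC (SD, n = 3), and the Itgav value of PEC 1, 11.6, stands far above those of PEC 2 and PEC 3, 1.45 and 0.658.

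Itga4 and Itga9 form a branch of their own and bind Vcam1, fibronectin, tenascin and osteopontin. Itga4, carried by lymphocytes and monocytes, stood at 0.317, 0.395 and 0.412 for Control, 1.84, 2.04 and 1.52 for HN and 0.618, 0.752 and 0.590 for PEC. HN was highest, PEC lay between, Control was lowest, and the groups did not overlap. It rose 4.89-fold in HN (2.29 ± 0.16, adjusted p = 9.61e-06) and was 2.72-fold lower in PEC (-1.44 ± 0.16, adjusted p = 0.000183), still 1.80-fold above Control (0.85, adjusted p = 0.00196). With the length and GC offset these values were -0.70 against HN and 1.66 against Control, and limma at a pseudocount of 1 did not call the latter, at 0.36. Itga9, found on smooth muscle, epithelium and neutrophils, had 2.25, 2.54 and 1.97 for Control, 7.22, 7.09 and 5.89 for HN and 2.16, 3.01 and 2.52 for PEC. PEC mice overlapped Control and all lay below HN. The rise in HN was 3.03-fold (1.60 ± 0.15, adjusted p = 3.56e-05), PEC was 2.59-fold lower than HN (-1.38 ± 0.15, adjusted p = 0.000163), and PEC against Control gave 0.22 ± 0.14, which was not called. Their ligand Vcam1 rose as well in HN, as given with the other ligands.

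All 6 leukocyte subunits that were tested rose in HN, and all 6 were higher in PEC than in Control. Their summed level, led by Itgb2, was 3.59, 3.89 and 3.78 for Control, 34.5, 35.9 and 29.0 for HN and 16.5, 25.1 and 23.0 for PEC. Only Itgam among them was called lower in PEC than in HN. Total counts alone and limma at a pseudocount of 0.1 added Itgal and Itgb2, and limma at a pseudocount of 1, no filter and both offsets added Itgb2.

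Itgam codes for the alpha subunit of the complement receptor of macrophages and neutrophils. It stood at 0.244, 0.323 and 0.116 for Control, 13.2, 8.59 and 8.13 for HN and 2.21, 5.45 and 2.71 for PEC. Control mice were all under 0.33, HN mice were highest, and PEC mice lay between without overlap, PEC 2 above the other treated mice. It rose 43.3-fold in HN (5.44 ± 0.48, adjusted p = 2.92e-05), was 2.86-fold lower in PEC (-1.52 ± 0.40, adjusted p = 0.0140) and remained 15.1-fold above Control (3.92 ± 0.45, adjusted p = 0.000140). The call in PEC against HN was lost without HN 4, at -1.27.

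Itgax, the alpha subunit of dendritic cells and some macrophages, kept near its HN level, with 0.341, 0.407 and 0.399 for Control, 4.73, 6.75 and 4.55 for HN and 3.77, 5.37 and 5.78 for PEC. HN and PEC overlapped and both lay far above Control. It rose 14.1-fold in HN (3.81 ± 0.22, adjusted p = 4.08e-06) and was 13.3-fold above Control in PEC (adjusted p = 7.77e-06), with -0.09 ± 0.20 in PEC against HN. The ratio of Itgam to Itgax averaged 0.5996 in Control, 1.95 in HN and 0.690 in PEC (SD 0.271, 0.777 and 0.287, n = 3), and it was formed after the values were seen and not tested.

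Itgb2, the beta subunit with which Itgal, Itgam, Itgax and Itgad pair, was at 1.60, 1.58 and 1.83 for Control, 12.2, 14.3 and 11.1 for HN and 6.21, 9.28 and 9.64 for PEC. The groups did not overlap, with PEC between Control and HN. It rose 7.63-fold in HN (2.93 ± 0.18, adjusted p = 5.57e-06), and PEC against HN gave -0.57 ± 0.17 with an adjusted p of 0.0244, short of the fold limit. That value was called lower without HN 12, PEC 2 or PEC 3, at -0.65, -0.63 and -0.67. Itgal, the lymphocyte function subunit that binds Icam1, had 0.548, 0.634 and 0.579 for Control, 1.38, 2.35 and 1.52 for HN and 0.986, 1.17 and 1.44 for PEC. Control lay below all other mice, and HN 8 was the highest library. It rose 3.04-fold in HN (1.60 ± 0.23, adjusted p = 0.000487) and was 2.11-fold above Control in PEC (adjusted p = 0.00404).

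Itgb7 and Itgae pair in lymphocytes that lodge in epithelium, where alpha E binds E-cadherin. Itgb7 was at 0.694, 0.682 and 0.515 for Control, 2.14, 2.93 and 2.93 for HN and 2.71, 2.99 and 2.81 for PEC. All HN and PEC mice lay well above Control and overlapped each other. It rose 4.24-fold in HN (2.08 ± 0.19, adjusted p = 3.73e-05) and stood 4.57-fold above Control in PEC (adjusted p = 3.84e-05). Itgae had 0.171, 0.263 and 0.322 for Control, 0.802, 0.972 and 0.721 for HN and 0.570, 0.831 and 0.5998 for PEC, again with Control lowest and the other groups overlapping. It rose 3.35-fold in HN (1.74 ± 0.27, adjusted p = 0.000763) and was 2.70-fold higher in PEC than in Control (adjusted p = 0.00216), a call lost with limma at a pseudocount of 1, at 0.48.

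**Figure D4:**
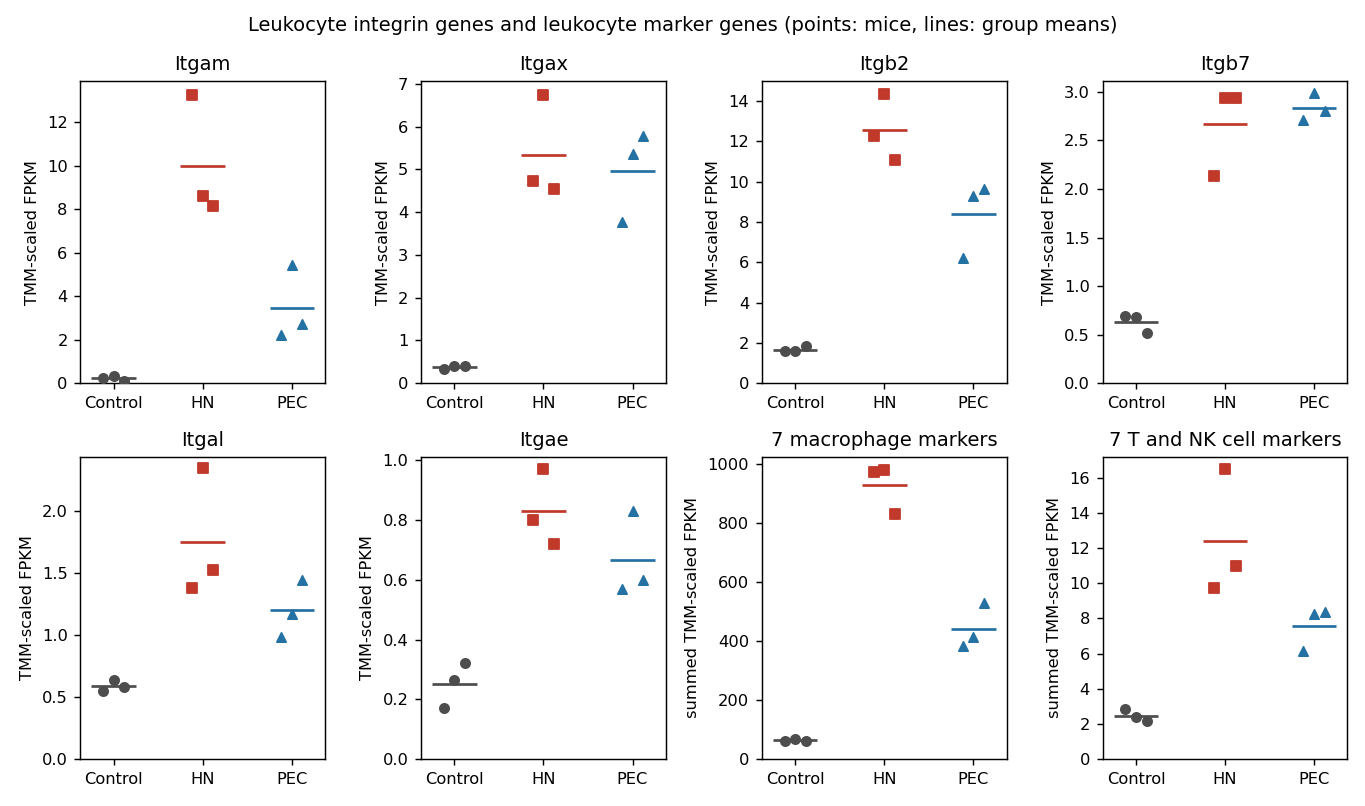
TMM-scaled FPKM of Itgam, Itgax, Itgb2, Itgb7, Itgal and Itgae, and the summed TMM-scaled FPKM of 7 macrophage and of 7 T and NK cell markers, for each mouse (points) with group means (lines) in Control, HN and PEC. Itgam averages 0.228 ± 0.105, 9.98 ± 2.82 and 3.46 ± 1.74 in Control, HN and PEC (SD, n = 3), and Itgax 0.382 ± 0.0359, 5.34 ± 1.22 and 4.97 ± 1.06.

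Leukocyte markers moved in the same mice. For comparison with the counts of these lists, 19.4% of all genes were higher in HN and 16.5% lower in PEC against HN. In PEC against Control 20.9% of all genes were higher. The 7 macrophage markers, of which Lyz2 was the most abundant, summed to 60.3, 67.0 and 61.7 for Control, 973, 979 and 832 for HN and 384, 413 and 528 for PEC. All 7 rose in HN, 6 of 7 fell in PEC against HN and all 7 stayed above Control in PEC. Adgre1 fell most among them, -2.04 ± 0.23 in PEC against HN, while Cd68 gave -0.16 ± 0.26. General leukocyte markers, led by Cd52, summed to 9.87, 12.8 and 11.3 for Control, 75.4, 102 and 77.4 for HN and 53.4, 60.6 and 73.5 for PEC, with 4 of 4 higher in HN and 2 of 4 lower in PEC against HN.

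The T and NK cell markers, led by Nkg7, summed to 2.86, 2.41 and 2.14 for Control, 9.74, 16.5 and 10.98 for HN and 6.16, 8.23 and 8.36 for PEC, with 7 of 7 higher in HN and 2 of 7 lower in PEC. Dendritic cell markers summed to 3.16, 3.11 and 2.88 for Control, 5.19, 5.19 and 5.50 for HN and 10.1, 9.79 and 5.09 for PEC. By group mean Zbtb46 was the most abundant of them in Control and HN and Cd209a in PEC. The sums of PEC 1 and PEC 2 were highest by Cd209a, itself at 0.524, 0.587 and 0.785 for Control, 1.38, 1.39 and 1.87 for HN and 6.52, 5.78 and 0.967 for PEC. In PEC 3 both Clec9a and Zbtb46 exceeded Cd209a. Of these 5 genes 2 were higher in HN, none differed in PEC against HN by the call, and 4 were higher in PEC than in Control. Neutrophil markers, led by S100a9, summed to 8.15, 15.1 and 5.48 for Control, 27.5, 14.5 and 16.1 for HN and 8.30, 10.03 and 26.9 for PEC and varied within groups, with 1 of 4 tested genes higher in HN. None of these lists had a gene at 0 in every library. The share of these cells in the integrin values was not tested.

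Itgal, Itgam, Itgax and Itgad lie on chromosome 7, the first at chr7:127296260-127335138 and the others in a row at chr7:128062640-128118491, chr7:128129547-128150657 and chr7:128154376-128205504 (GRCm38, all on the plus strand). The promoters of the leukocyte subunits are shown because these genes rose together. RefSeq promoters of build GRCm38.p6, 250 bases before to 50 bases after the gene start, could be matched for 23 of the 36 members, 3 of them leukocyte subunits. They were searched for GAGGAA, the core of the sequence bound by the myeloid factor PU.1, on both strands, where a match on the other strand reads TTCCTC, and matches are in capitals. The motif was chosen after the expression values were seen. Itgam (chr7:128062390-128062689, plus strand) holds 1 match as written and 2 on the other strand, Itgax (chr7:128129300-128129599, plus strand) holds none, and Itgb7 (chr15:102231886-102232185, minus strand, printed 5′ to 3′ along the gene) holds 1 on the other strand.
Itgam: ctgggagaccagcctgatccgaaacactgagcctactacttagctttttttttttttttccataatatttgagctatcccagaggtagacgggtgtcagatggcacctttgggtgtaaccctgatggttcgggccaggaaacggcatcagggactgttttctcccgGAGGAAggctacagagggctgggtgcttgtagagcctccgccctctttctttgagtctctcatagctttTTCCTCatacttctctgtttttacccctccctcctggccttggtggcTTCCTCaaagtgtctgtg
Itgax: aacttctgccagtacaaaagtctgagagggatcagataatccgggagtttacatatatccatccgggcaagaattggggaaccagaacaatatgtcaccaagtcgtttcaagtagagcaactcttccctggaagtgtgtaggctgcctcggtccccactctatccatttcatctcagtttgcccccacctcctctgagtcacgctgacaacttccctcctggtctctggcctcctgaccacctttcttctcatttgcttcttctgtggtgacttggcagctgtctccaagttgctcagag
Itgb7: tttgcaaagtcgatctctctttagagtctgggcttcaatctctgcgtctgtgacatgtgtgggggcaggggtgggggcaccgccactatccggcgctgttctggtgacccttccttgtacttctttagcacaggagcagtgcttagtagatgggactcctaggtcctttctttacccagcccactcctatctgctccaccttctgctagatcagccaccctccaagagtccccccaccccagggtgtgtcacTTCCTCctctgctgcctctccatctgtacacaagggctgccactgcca

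Of all 32851 promoters of that length 28.3% hold the motif on either strand, and 14 of the 26 promoters matched to members do. A match is a description, not a site or a cause, and its absence from Itgax says only that these letters are not in that window.

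Laminin alpha chains split in both directions. In HN 3 were called higher, Lama2, Lama4 and Lama5, and 2 lower, Lama1 and Lama3. Lama5, the main alpha chain of adult glomerular and tubular basement membranes, was the most abundant, with 14.2, 12.2 and 9.90 for Control, 17.9, 18.1 and 17.7 for HN and 20.1, 19.1 and 18.6 for PEC. HN and PEC mice all exceeded Control, and PEC mice were the highest. It rose 1.504-fold in HN (0.59 ± 0.12, adjusted p = 0.00363), a call at the edge of the fold limit that was lost without Control 5 at 0.46 and without HN 8 or PEC 3 at 0.58, and with the length and GC offset at 0.51, and stood 1.64-fold above Control in PEC (0.71 ± 0.12, adjusted p = 0.00124). The call in PEC was also lost without Control 5, at 0.58.

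Lama2, the alpha chain of muscle and of the mesangial matrix, had 0.975, 1.05 and 1.20 for Control, 2.86, 2.42 and 2.31 for HN and 0.831, 1.31 and 0.774 for PEC. HN mice stood far above Control and PEC, which overlapped. It rose 2.39-fold in HN (1.26 ± 0.19, adjusted p = 0.000623) and was 2.57-fold lower in PEC (-1.36 ± 0.19, adjusted p = 0.000606). Lama4, an alpha chain of vessel walls, was at 0.670, 0.682 and 0.824 for Control, 1.46, 1.67 and 1.53 for HN and 0.715, 0.802 and 1.48 for PEC. HN lay above Control, and PEC 3 alone of the treated mice reached the HN range. It rose 2.16-fold in HN (1.11 ± 0.26, adjusted p = 0.00672). In PEC against HN it was -0.62 ± 0.26 and not called, and it was called lower without PEC 3 at -1.01, with total counts alone at -0.85, with DESeq2 at -0.64 and with limma at a pseudocount of 0.1 at -0.87. In PEC against Control it was 0.49 ± 0.26 and not called. There it was called higher with total counts alone at 0.84, limma at a pseudocount of 0.1 at 0.65, the length offset at 1.03 and the length and GC offset at 0.85.

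Lama1, the alpha chain of embryonic basement membranes that persists in the proximal tubule, had 2.19, 2.04 and 1.93 for Control, 1.32, 1.33 and 1.09 for HN and 1.86, 1.56 and 1.51 for PEC. HN mice were lowest, PEC mice next and Control highest, without overlap. It was 1.62-fold lower in HN (-0.70 ± 0.12, adjusted p = 0.00165), and PEC against HN gave 0.42 ± 0.12, short of the fold limit. Lama3, the alpha chain that anchors hemidesmosomes, was at 4.87, 5.23 and 5.53 for Control, 3.01, 3.41 and 2.34 for HN and 2.43, 2.58 and 2.88 for PEC. Control exceeded all other mice, and HN and PEC overlapped. It was 1.76-fold lower in HN (-0.81 ± 0.14, adjusted p = 0.00122) and 1.93-fold lower in PEC than in Control (-0.95 ± 0.14, adjusted p = 0.000520). With total counts alone both HN calls were lost, at -0.13 for Lama1 and -0.25 for Lama3, as with both limma fits. The call of Lama3 in PEC against Control was lost with the length offset at -0.46 and with limma at a pseudocount of 1 at -0.50.

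Of the beta chains Lamb1, of tubules and vessels, was the most abundant, with 13.9, 14.5 and 16.3 for Control, 27.5, 26.7 and 29.0 for HN and 18.05, 19.9 and 19.2 for PEC. The 3 groups stood apart, PEC between Control and HN. It rose 1.89-fold in HN (0.92 ± 0.082, adjusted p = 2.90e-05), and in PEC against HN the value was -0.53 ± 0.081 with an adjusted p of 0.00102, under the fold limit, and called lower with total counts alone and both limma fits. In PEC against Control it was 0.40 ± 0.081, not called. There it was called higher with total counts alone at 0.74, both limma fits at 0.65 and 0.69, the length offset at 0.85 and the length and GC offset at 0.59. Lamb2, the beta chain of the mature glomerular basement membrane, averaged 8.93 ± 0.900 in Control, 11.4 ± 0.716 in HN and 13.2 ± 0.573 in PEC (SD, n = 3). It was called higher in PEC than in Control only, at 0.61, and not without Control 5 or PEC 1, at 0.52 and 0.57, nor without a filter, at 0.58. Lamb3, a partner of the alpha 3 chain, averaged 1.42 ± 0.428, 1.80 ± 0.123 and 1.30 ± 0.445 and was called in no comparison, though total counts alone gave a higher call in HN at 0.92 and limma at a pseudocount of 0.1 did at 0.89. Without PEC 3, where it was 1.81, it was lower in PEC than in HN at -0.74.

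The gamma 1 chain, part of nearly every laminin, is coded by Lamc1, which had 6.74, 6.19 and 6.04 for Control, 13.6, 13.7 and 12.4 for HN and 7.21, 7.71 and 8.39 for PEC. HN was highest and PEC lay just above Control, with no overlap. It rose 2.13-fold in HN (1.09 ± 0.087, adjusted p = 1.71e-05) and was 1.68-fold lower in PEC (-0.75 ± 0.087, adjusted p = 0.000231), a call lost with the length offset at -0.43. PEC against Control gave 0.34 ± 0.086, which was not called. It was called higher with total counts alone at 0.68, limma at a pseudocount of 0.1 at 0.63 and the length offset at 0.71. Lamc3, a scarcer gamma chain, averaged 1.79 ± 0.526 in Control, 1.30 ± 0.384 in HN and 0.970 ± 0.146 in PEC. It was called lower in PEC than in Control (-0.84 ± 0.28, adjusted p = 0.0341), a call lost without Control 2, Control 5, PEC 1 or PEC 2, at -0.70, -0.73, -0.83 and -0.73, with total counts alone at -0.49, with both limma fits and with the length offset at -0.62.

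The makeup of each class of laminin chains is given as shares of its summed FPKM. Among alpha chains Lama5 held 56.9% ± 5.50 in Control, 68.5% ± 2.06 in HN and 75.5% ± 1.92 in PEC (SD, n = 3), while Lama3 went from 24.8% ± 3.65 to 11.1% ± 1.64 and 10.3% ± 1.03. Lama1 held 9.71% ± 0.218, 4.76% ± 0.352 and 6.43% ± 0.637, and Lama2 5.13% ± 0.972, 9.67% ± 0.974 and 3.805% ± 1.16. For each of these chains the libraries of Control and HN do not overlap. Lamb1 held 59.0% ± 4.95 of the beta chains in Control, 67.7% ± 2.07 in HN and 56.7% ± 1.90 in PEC, with Lamb2 at 35.4% ± 3.27, 27.9% ± 1.75 and 39.4% ± 2.27. Lamc1 made up 78.1% ± 5.07, 91.2% ± 2.07 and 88.9% ± 1.17 of the gamma chains. Shares do not depend on the scaling between libraries, and no test of them was made.

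**Figure D5:**
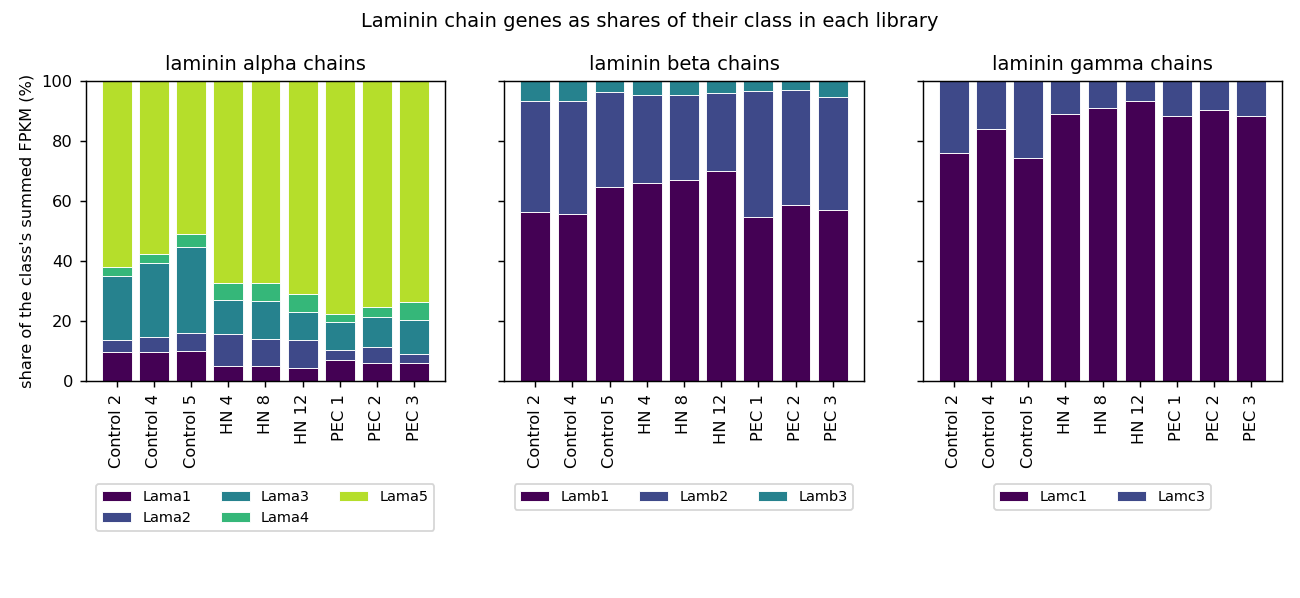
Share (%) of each laminin chain gene in the summed FPKM of its class, alpha, beta or gamma, in each of the 9 libraries, 1 stacked bar per mouse. The Lama5 share runs from 51.1% to 62.0% in Control, 67.2% to 70.9% in HN and 73.7% to 77.5% in PEC.

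Among the beta subunits of integrins, Itgb8 held 16.0% ± 1.89 of the class in Control, 5.32% ± 0.556 in HN and 3.11% ± 0.468 in PEC (SD, n = 3), or 33.9%, 13.3% and 7.92% of the counts. Itgb5 held 20.1% ± 1.48, 25.1% ± 0.824 and 29.5% ± 2.04, Itgb6 3.61% ± 0.859, 3.44% ± 0.421 and 7.37% ± 0.503, and Itgb2 1.04% ± 0.131, 5.14% ± 0.608 and 5.95% ± 1.36. Of the alpha subunits Itga3 held 29.5% ± 4.56 in Control, 23.6% ± 1.19 in HN and 32.7% ± 3.58 in PEC, and Itga6 24.3% ± 2.75, 17.5% ± 1.996 and 10.3% ± 1.46. Itgam went from 0.474% ± 0.198 to 10.03% ± 1.85 and 5.99% ± 2.99. The sum over all 36 members was 272, 268 and 249.8 for Control, 447, 425 and 400.4 for HN and 262, 281 and 257 for PEC, highest in HN.

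Genes that work with these proteins were followed as 4 lists. Beside their counts stand the shares of all genes called higher and lower, 19.4% and 17.0% in HN, 15.4% and 16.5% in PEC against HN, and 20.9% and 19.1% in PEC against Control. Of 21 partners in basement membranes 11 were higher and 3 lower in HN (median 0.92), 0 higher and 9 lower in PEC against HN (median -0.56), and 7 higher and 3 lower in PEC against Control (median 0.17). The largest rises in HN were those of Frem1, a matrix protein of epithelial basement membranes (3.001 ± 0.47, adjusted p = 0.000749), Sparc, a collagen-binding matrix protein (2.39 ± 0.11, adjusted p = 1.57e-06), and Pxdn, the peroxidase that crosslinks collagen IV (2.001 ± 0.11, adjusted p = 3.60e-06). Frem1 also fell most in PEC against HN (-2.30 ± 0.45, adjusted p = 0.00353), followed by Hspg2, which codes for perlecan (-1.29 ± 0.085, adjusted p = 2.56e-05).

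Integrin ligands include matrix proteins, complement and adhesion molecules. Of 27 ligands 21 were higher and 1 lower in HN (median 2.405), 1 higher and 15 lower in PEC against HN (median -0.74), and 19 higher and 0 lower in PEC against Control (median 1.68). C3, whose fragment binds the Itgam receptor, rose 76.5-fold (6.26 ± 0.27, adjusted p = 1.57e-06) and gave 0.11 ± 0.21 in PEC against HN, not called. Vcam1, bound by alpha 4 and alpha 9, rose 24.8-fold (adjusted p = 1.26e-06) and Col1a1, of fibrillar collagen, 19.0-fold (adjusted p = 5.13e-07). The largest falls in PEC against HN were those of the matricellular genes Ccn2 (-2.06 ± 0.36, adjusted p = 0.00207) and Thbs1 (-1.78 ± 0.18, adjusted p = 0.000144). Spp1, which codes for osteopontin, was the most abundant ligand.

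Of 29 cytoplasmic adaptors of integrins 8 were higher and 4 lower in HN (median 0.07), 3 higher and 6 lower in PEC against HN (median -0.17), and 7 higher and 4 lower in PEC against Control (median 0.05). Parvg and Fermt3, adaptors of blood cells, rose 7.88-fold and 5.999-fold in HN (adjusted p = 0.000190 and 1.07e-05), and the actin crosslinker Actn1 4.51-fold (adjusted p = 9.03e-06). Vcl, which codes for vinculin, fell in PEC against HN (-1.72 ± 0.21, adjusted p = 0.000270), and Lims2, a partner of integrin-linked kinase, rose (1.07 ± 0.12, adjusted p = 0.000209).

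Of 11 other laminin receptors and their partners 5 were higher and 1 lower in HN (median 0.45), 0 higher and 4 lower in PEC against HN (median -0.58), and 4 higher and 3 lower in PEC against Control (median 0.10). Col17a1, a hemidesmosome collagen that joins the alpha 6 beta 4 integrin, had 4 counts in all Control libraries, 1047 in HN and 406 in PEC. Its ratio of HN to Control was 176, with an exact 95% interval of 68.4 to 646 that covers counting error only. Sdc1, a heparan sulfate receptor, rose 3.61-fold in HN (adjusted p = 0.000170) and Bcam, a receptor for the laminin alpha 5 chain, 2.89-fold (adjusted p = 3.25e-05). Utrn, which codes for utrophin, fell in PEC against HN (-1.81 ± 0.40, adjusted p = 0.00612), as did the laminin receptor Dag1 (-0.90 ± 0.067, adjusted p = 4.12e-05).

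Markers of the other kidney cells that carry integrins and laminins were followed too. Beside their counts stand the shares of all genes called higher and lower, 19.4% and 17.0% in HN, and 15.4% and 16.5% in PEC against HN. A count of 1 of 5 is near those shares. Fibroblast and mural cell markers summed to 59.3, 58.0 and 56.1 for Control, 192, 185 and 172 for HN and 132, 143 and 128 for PEC. By group mean Acta2 was the most abundant in Control and PEC and Col1a1 in HN. Of the 6 markers 5 were higher in HN and 3 lower in PEC against HN. Those 5 risers include Col1a1, which the ligand list also holds. Endothelial markers averaged 52.2 ± 3.87 in Control, 43.6 ± 1.16 in HN and 44.3 ± 9.58 in PEC (SD, n = 3), with 1 of 5 lower in HN and 1 of 5 higher in PEC against HN. The most abundant of them by group mean was Pecam1 in Control, Cdh5 in HN and Emcn in PEC. Loop and distal tubule markers, led by Umod, averaged 1493 ± 88.1, 1301 ± 96.7 and 1323 ± 87.3, with 3 of 5 lower in HN and 2 of 5 higher in PEC against HN. Collecting duct markers, led by Aqp2, averaged 379 ± 126, 150.8 ± 32.0 and 215 ± 30.5, with 3 of 5 lower in HN and 2 of 5 higher in PEC against HN.

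Of the 6 urothelium markers Upk1a was the most abundant by group mean in Control and Upk3a in HN and PEC, although Upk1a exceeded Upk3a in PEC 2. The 6 markers summed to 8.14, 9.19 and 6.33 for Control, 3.15, 4.13 and 7.68 for HN and 3.58, 1.67 and 33.9 for PEC, and none was called in any comparison with edgeR. PEC 3 was above all other libraries. What urothelium or cell composition adds to the values of members was not tested.

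The members are long genes, and length moved with the treated libraries. Median length was 7792 bases over the tested members and 3957 over all tested genes. Across 18554 genes, which are not independent of each other, the rank correlation of length with the log2 fold change was -0.305 in PEC against HN and -0.183 in PEC against Control, and 0.0726 in HN against Control. With the share of G and C in the transcript it was 0.198, 0.222 and 0.0470 in that order. Of 5364 genes of at least 6000 bases 27.6% were lower and 6.79% higher in PEC against HN, and 28.0% lower and 14.6% higher in PEC against Control. In PEC against HN 8 of the 25 tested members of that length were lower and 1 higher, and of the other 10 members 2 were lower and 0 higher. In PEC against Control 5 of the 25 were lower and 7 higher, and of the other 10 members 0 were lower and 7 higher. With an offset for length 9 members were lower in PEC than in HN and 4 higher, Itga2b, Itga7, Itgb6 and Lama1, while Itgb3 and Lamc1 lost their calls at -0.52 and -0.43 and Itgb2 was added. Of all 18571 genes 2551 were lower and 2791 higher with that offset, in place of 3055 and 2855. In PEC against Control the offset gave 20 members higher and left Itgb8 alone lower, with 4232 of all genes higher and 3016 lower. The cause of the relation with length was not tested.

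Some members share ground with other genes, and whether counting used the strand is not given in the sources used here. On the opposite strand Mettl7b overlaps Itga7, with counts at 1377% of those of Itga7, Haspin overlaps Itgae at 171%, Hsd11b1 and G0s2 overlap Lamb3 at 689.7% and 377%, and Gm2415 overlaps Itga9 at 17.6%. On the same strand Pelo overlaps Itga1 with counts at 20.7% of those of Itga1, and Gm49368 overlaps Itgam at 15.1%. The strand could separate reads of the former pairs and not of the latter, and what part of the values of these members comes from overlapping genes was not tested.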

How the data were processed

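The authors extracted kidney RNA with Trizol and selected poly(A) RNA with oligo-T beads. The deposited table holds raw counts and FPKM for 9 libraries and 55385 genes. Aligner and counting program are not given in the sources used here for that table. The submitters' notes list Bowtie 0.12.2 with builds mm8 and mm9, whereas 47924 of 55144 genes found in GENCODE release 21 have identical GRCm38 coordinates. Ages and doses are from the study's methods. The titles of Control samples also read HN mice, and their other labels, which name them untreated controls, were followed.

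Counts of all 9 libraries were fitted in edgeR 4.0.16 (R 4.3.3) with TMM factors and quasi-likelihood tests for genes with a mean count of at least 20. The p-values were adjusted by Benjamini and Hochberg over 18571 genes. Group medians of depth were 75320528, 74315544 and 65583215 counts in Control, HN and PEC, and spread between mice over Poisson error was 62.8 to 212 (chi-squared per degree of freedom, over genes with at least 20 counts in a pair of libraries). Alternatives were DESeq2 1.42.0 and its size factors, total counts, limma 3.58.1 on log2 of FPKM plus 1 or 0.1, other filters and call limits, the 2 compared groups alone, an offset for gene length, and leaving out each mouse. An offset for length and GC was added after the data were seen. The code was tested on simulated data, and the recovery it had to reach there was lowered after its first run. It missed a large part of what it was given there, so a gene not called may have changed.

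Members and lists were chosen with earlier results of these data known. Within each role, values of each mouse are given for the member with the highest mean FPKM, for members called in HN against Control with a log2 fold change of at least 1 in size, and for those called with the same sign in PEC against HN. From each partner list the 3 largest changes called in HN against Control and the 2 largest called in PEC against HN are named. Values of Itga6, Itga8, Itga2b, Itgb6, Lama1, Lama3, Npnt, Adgre1, Cd68, Cd209a and Gp1ba were added after they were seen. Itgad had too few counts to test. Of 38 entries that match the naming rule, 2 are not reported here. The marker and partner lists hold standard genes of each cell type or process. Splicing, protein and kidney function were not analysed here.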

Additional observations from a re-analysis of the deposited data

How the results depend on the processing

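Of 1977 values compared with those of the edgeR fit with TMM factors, 1766 kept their direction and side of the limits, 99 passed the limits only in the alternative, 66 no longer passed and 46 changed sign. None of those 46 was called with either setting. With counts in place of FPKM 72 of 108 shares moved by more than 1 SD. No paired analysis was possible because the groups share at most 1 replicate number. Where a mouse was left out its group kept 2.

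In HN against Control, 22 members were higher and 4 lower. The 4 lower became 0 with total counts alone, 0 with limma at a pseudocount of 1 or 0.1, and 0 at a fold limit of 2. In PEC against HN, the 1 higher became 0 with limma at a pseudocount of 1, 4 with the length offset and 3 with the length and GC offset, and the 10 lower became 17 with total counts alone and 19 with limma at a pseudocount of 0.1. In PEC against Control, the 14 higher became 9 at a fold limit of 2, and the 5 lower became 2 with total counts alone, 1 and 3 with limma at a pseudocount of 1 and 0.1, 1 with the length offset and 1 at a fold limit of 2, and ranged from 3 to 5 with a mouse left out, 3 being without Control 5. With a mouse left out the higher members in the order of the comparisons were 21 to 23, 1 and 10 to 14, and the lower 4, 8 to 14 and 3 to 5. The 10 higher in PEC against Control were without Control 5, and leaving out any other mouse gave 13 or 14.

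Signs changed as follows (log2 fold changes). With total counts alone: in HN against Control Itga10 0.44 and Lamc3 0.13; in PEC against HN Itgb7 -0.13 and Lama5 -0.10; in PEC against Control Lama1 0.0608, Lama2 0.24 and Lamb3 0.25. With limma at a pseudocount of 1: Lamc3 0.0622 in HN against Control, Itgb7 -0.10, Lama5 -0.12 and Lamb2 -0.0154 in PEC against HN, and Lama1 0.00972, Lama2 0.0834 and Lamb3 0.11 in PEC against Control. At a pseudocount of 0.1 these were 0.10, -0.12, -0.12, -0.0164, 0.0140, 0.14 and 0.19. With the length offset: in PEC against HN Itga1 0.15, Itgax 0.0213 and Lama3 0.28, and in PEC against Control Lama1 0.16, Lama2 0.50, Lamb3 0.19 and Itgav 0.0459. With the length and GC offset: in PEC against HN Itgb7 -0.0474, Itga1 0.30 and Lama3 0.0818, and in PEC against Control Lama2 0.36 and Itgav 0.17. With a mouse left out: Itga10 ranged from -0.41 to 0.11 in HN against Control, Itgb7 from -0.0362 to 0.18 and Itgax from -0.19 to 0.11 in PEC against HN, and in PEC against Control Lamb3 from -0.39 to 0.0782, Itga10 from -0.0481 to 0.46, Itgav from -2.56 to 0.11 and Lama2 from -0.36 to 0.0467. For all of these the cause was not tested.

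A pseudocount of 1 draws scarce genes toward 0. In limma with it HN against Control gave Itgam 3.42, Itgax 2.48, Itgb7 1.47, Itga4 1.28, Itga2 0.90 and Itgae 0.73, and PEC against Control Itgam 1.87, Itgax 2.20 and Itgb7 1.37, all of them called. With 3 mice per group, a value not called does not show that groups were equal. Itga11, with 10 to 147 counts in a library, and Itgad lay nearest the limit of depth.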
